A study of Mus musculus with 56 samples.

Results

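Liver ribosome footprints from mice labelled 20 months old were compared with those from mice labelled 1 month old. The compared libraries were taken by their labels, 3 at each age, and make 6 of the 18 liver footprint libraries and 6 of all 56 libraries of the study. Footprints are the stretches of mRNA that ribosomes shield from nuclease, so their number per gene follows how much of the mRNA is engaged by ribosomes. The study profiled footprints and total RNA of liver and kidney across adult life in C57BL/6 mice. Both groups were C57BL/6, and the labels give neither a treatment nor an altered allele for either; the sex of the animals was not given in the sources used here. Whole frozen liver was lysed, so all cell types of the organ are pooled in each library. The study states 3 animals for each of these ages, and the labels give no animal for a library, so p-values measure the spread between libraries.

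The liver is the main site where fatty acids are made, burned, packed into triglyceride and exported in lipoproteins, and triglyceride not exported is kept in cytosolic lipid droplets. Proteins of the CIDE family fuse droplets into larger ones, and FIT proteins move triglyceride from the endoplasmic reticulum into them. Hepatocytes also make most plasma complement and clear drugs through cytochrome P450 enzymes, many of which differ between the sexes in mice under the pattern of growth hormone pulses.

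Total counts of the 6 libraries ran from 7985755 to 17630204. Albumin (Alb) stood at 46552 to 77541 CPM (read counts scaled to a common library size after TMM normalization) in all 6, and markers of hepatocyte secretion were present in every library. Kap, an abundant kidney transcript, stood at 13.2 CPM in library 1 labelled 1 month and at no more than 0.757 in the other 5. Library 2 labelled 20 months had 7.72% of its counts on Gm42418, a gene model that overlaps ribosomal RNA, against at most 0.0908% in any other liver footprint library. The age labels themselves are in doubt. H19, a transcript of fetal and juvenile liver, was at 10.4 to 22.7 CPM in the libraries labelled 11 months and at no more than 0.410 CPM in those labelled 1 month. The libraries labelled 11 months here carry 10m in their titles and 11 months in their age field. Sorted as text, the ages stand in another order than sorted by time, and labels attached in that order would be displaced. In that case libraries labelled 20 months would be from mice of 11 months, and libraries labelled 1 month from mice of 3 months. Whether this happened was not tested, and every result below is stated for the labels as given.

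Between the labelled ages 48 of 13608 tested genes were called by edgeR's quasi-likelihood test at an adjusted p under 0.05, which is 0.353% of genes. Of these, 38 (0.279%) were higher and 10 (0.0735%) were lower in the libraries labelled 20 months. Lipid droplet proteins, cytochrome P450 and other detoxifying enzymes and the heme-synthesis enzyme Alas1 were among the genes that rose. The complement component C9, the male-biased Selenbp2 and Ugt2b38 and the secreted peptide gene Enho were among those that fell. All 48 had ranges that did not overlap between the groups, a state seen in 21.9% of all tested genes. The median log2 difference over all genes was −0.02, and 47.5% of genes had a difference above 0. With library size as the only scaling, that median was −0.19, and the split turned to 15 higher and 18 lower genes. The number of calls fell to between 5 and 20 when 1 of the 6 libraries was left out, with 5 calls without library 2 labelled 1 month. Gprc5b, Osbpl3 and Cyp2a22 were called in every alternative fit, and all 48 genes kept their direction in each.

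**Figure D1:**
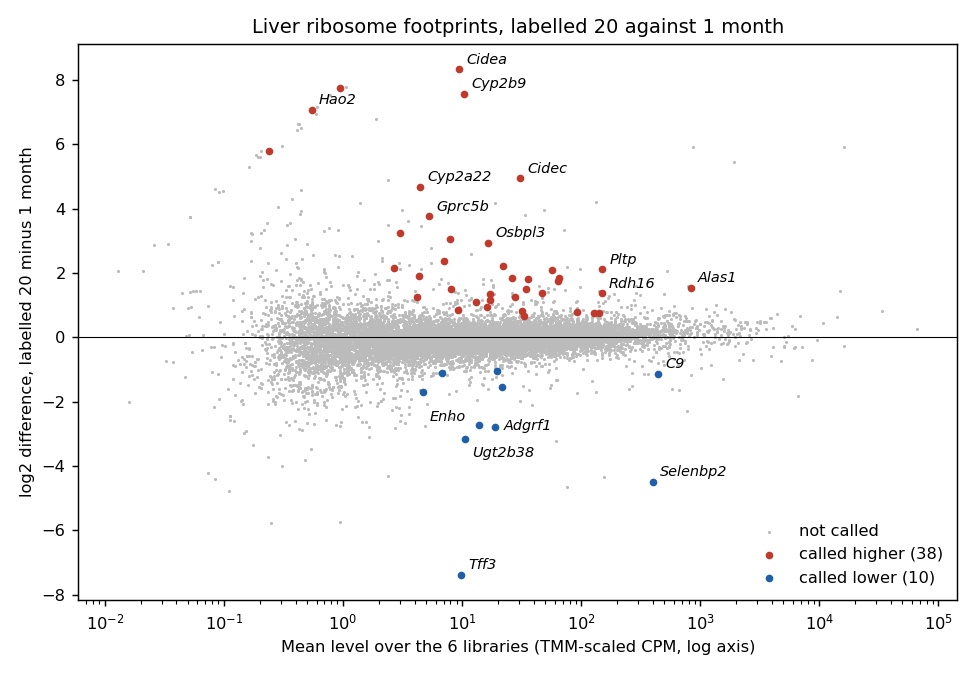
Each point is 1 of 13608 tested genes, with the mean TMM-scaled CPM of the 6 libraries on a log axis and the log2 difference of the libraries labelled 20 minus 1 month on the vertical axis. Red points are the 38 genes called higher and blue points the 10 called lower; genes with 0 counts in a group, such as Hao2, lie on fitted values that depend on the prior count.

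Genes of lipid droplet formation were among those with wide differences. Cidec, which tethers droplets and lets the larger grow at the expense of the smaller, stood at 48.1, 74.6 and 56.2 CPM in the libraries labelled 20 months and at 2.98, 1.16 and 1.80 in those labelled 1 month. The lowest older library was far above the highest younger one, and the log2 difference was 4.95 ± 0.70 (SE, n = 3 per group, edgeR adjusted p = 0.00520). Its relative Cidea, known best from brown fat and from fatty liver, stood at 5.84, 32.6 and 18.3 CPM against 0, 0 and 0.133 CPM. The groups rested on 659 counts against 2, a ratio of 355 (exact 95% interval 97.8 to 2935, counting error only), with an adjusted p of 0.0150. In these libraries the third member of the family, Cideb, which acts in lipoprotein loading, was not called, with a log2 difference of 0.23 ± 0.18 (adjusted p = 0.655).

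Fitm1, a FIT protein, was at 106, 101 and 98.95 CPM in the libraries labelled 20 months against 21.1, 28.4 and 35.2. Its groups were well apart, by a log2 difference of 1.85 ± 0.26 (adjusted p = 0.00520). Clstn3, whose locus in mice also gives a droplet protein of fat cells, was at 40.4, 49.8 and 32.6 CPM against 7.89, 10.7 and 15.1. The difference was 1.86 ± 0.27 (adjusted p = 0.00520), and the counts do not say which of its products was read. Mogat1, an acyltransferase that builds diacylglycerol from monoacylglycerol, was at 4.93, 6.00 and 5.43 CPM against 0.481, 0.547 and 0.667. That is 3.24 ± 0.48 on the log2 scale (adjusted p = 0.00646), with little spread inside either group. Vldlr, a receptor that takes up triglyceride-rich lipoproteins, was at 7.43, 5.15 and 8.08 CPM against 2.02, 1.37 and 2.13, a difference of 1.90 ± 0.39 (adjusted p = 0.0464).

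With single libraries left out, Fitm1, Clstn3 and Mogat1 were called in 5 of 6 fits, Cidec in 4, Cidea in 2 and Vldlr in 0. Without library 2 labelled 1 month, the adjusted p was 0.050 for Fitm1, 0.0552 for Clstn3, Mogat1 and Cidec, 0.116 for Cidea and 0.222 for Vldlr. The fitted difference of Cidea was 11.10 without library 3 labelled 1 month, which held both of its younger counts.

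**Figure D2:**
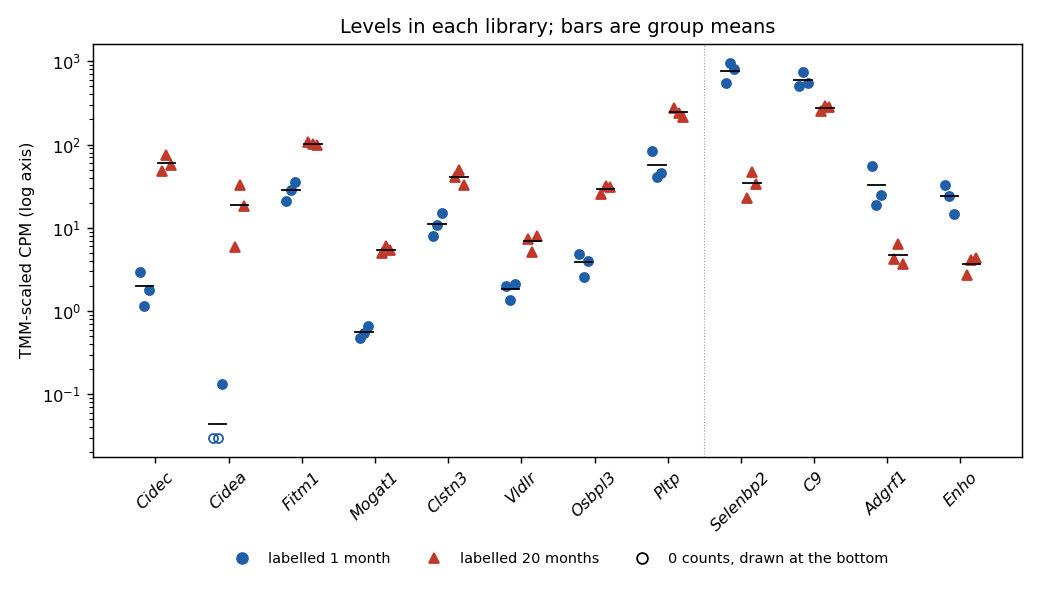
Each point is the TMM-scaled CPM of 1 gene in 1 library on a log axis, with circles for the 3 libraries labelled 1 month, triangles for the 3 labelled 20 months and bars for group means. The 8 genes to the left of the dotted line are higher and the 4 to the right are lower in the libraries labelled 20 months, and in none of the 12 do the groups overlap.

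Promoters of Cidec and Fitm1 and 1 of the 2 of Vldlr are shown as examples from the called droplet genes. Those of Clstn3 and Mogat1 were searched too and are not shown. Whether these genes share a regulator was not tested. RefSeq promoters (250 bases before to 50 after each start, GRCm38.p6) were matched for 36 of the 48 called genes. The 2 promoters of Cidec lie on the minus strand at chr6:113435711-113436010 and chr6:113434715-113435014. That of Fitm1 lies on the plus strand at chr14:55575424-55575723, and the second promoter of Vldlr on the plus strand at chr19:27216770-27217069. Capitals mark a match to the antioxidant element in Fitm1 and to the CCAAT-enhancer and ATF element in Vldlr.
Cidec first promoter: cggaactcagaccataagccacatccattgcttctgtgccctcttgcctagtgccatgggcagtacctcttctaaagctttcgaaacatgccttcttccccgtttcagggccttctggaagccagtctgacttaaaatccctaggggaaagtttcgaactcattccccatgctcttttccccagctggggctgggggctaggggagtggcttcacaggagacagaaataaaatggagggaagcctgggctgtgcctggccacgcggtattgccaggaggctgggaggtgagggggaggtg
Cidec second promoter: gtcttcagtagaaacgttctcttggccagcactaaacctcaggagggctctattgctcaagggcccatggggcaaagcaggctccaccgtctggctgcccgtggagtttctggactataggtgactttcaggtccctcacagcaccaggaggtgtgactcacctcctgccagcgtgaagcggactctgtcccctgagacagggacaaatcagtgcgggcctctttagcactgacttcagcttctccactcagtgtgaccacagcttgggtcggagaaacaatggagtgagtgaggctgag
Fitm1: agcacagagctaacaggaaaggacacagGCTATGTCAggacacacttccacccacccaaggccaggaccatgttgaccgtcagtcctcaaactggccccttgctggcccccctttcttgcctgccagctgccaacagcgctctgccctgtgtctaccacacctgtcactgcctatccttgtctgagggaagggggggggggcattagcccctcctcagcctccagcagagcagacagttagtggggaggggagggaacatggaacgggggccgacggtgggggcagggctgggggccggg
Vldlr second promoter: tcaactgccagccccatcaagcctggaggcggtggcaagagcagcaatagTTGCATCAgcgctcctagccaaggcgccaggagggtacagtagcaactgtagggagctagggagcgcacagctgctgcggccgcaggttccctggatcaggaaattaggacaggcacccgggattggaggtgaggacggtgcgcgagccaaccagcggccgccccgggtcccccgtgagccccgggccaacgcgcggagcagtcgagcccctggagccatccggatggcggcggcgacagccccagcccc

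Motifs were searched on both strands by their letters. The direct repeat bound by PPAR receptors was in neither Cidec promoter and in 0 of the 36 called genes with a promoter, against 0.0396% of all 32851 promoters and 0.0481% of all 27025 genes with one. The CCAAT-enhancer and ATF element (TGATGNAA) was in 2 of 36 genes and in 3.97% of all promoters (4.51% of genes); the match in Vldlr begins at −200 from the start. The antioxidant element (TGACNNNGC) was in 6 of 36 genes and in 12.4% of promoters (14.0% of genes), with the match in Fitm1 at −222. The STAT5 element (TTCNNNGAA) was in 2 of 36 genes and 8.3% of promoters (9.55% of genes), and the metal element (TGCACNC) in 8 of 36 genes and 12.6% of promoters (14.2% of genes). The matches are descriptions of letters only.

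Over 24 tested genes of droplets and lipid uptake, a list drawn up after values were seen, edgeR called the 6 above, 21 had a positive log2 difference and the median was 0.61. DESeq2, which called 1.5% of all genes, called 3 more (Cd36, G0s2 and Pparg). Cd36, a fatty acid transporter, was at 141, 122 and 178 CPM in the libraries labelled 20 months and 50.8, 39.0 and 59.4 CPM in those labelled 1 month (log2 difference 1.56 ± 0.32, adjusted p = 0.0504). G0s2, an inhibitor of the main triglyceride lipase, was at 143, 145 and 88.9 CPM against 16.2, 12.6 and 53.3 (2.20 ± 0.51, adjusted p = 0.0920). Plin4, a droplet coat protein, had 2.33 ± 0.89 (adjusted p = 0.350), and the receptor gene Pparg had 0.71 ± 0.18 (adjusted p = 0.116). The groups did not overlap for these genes, and over the list they were apart, with the older libraries higher, in 16 of 24, against 11.8% of all genes. Because the list was chosen with values known and holds the 6 called genes, that count is a description and no test. Other members were flat or negative, among them Plin3 at 0.05, Plin5 at 0.20, Hsd17b13 at −0.03, Hilpda at −0.23 and Abhd5 at −0.31. Plin2, the main coat protein of hepatocyte droplets, had 0.44 ± 0.21 (adjusted p = 0.460), and its groups overlapped.

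Markers of fat tissue were read beside these genes, since Cidea and Cidec are also fat cell genes. Adipoq and Plin1, which define fat cells, had 0 counts each over the libraries labelled 20 months and 1 count each over those labelled 1 month. Fabp4 stood at 2.92 to 3.66 CPM against 3.60 to 5.19. Cfd, the fat-cell factor adipsin, stood at 7.24, 3.90 and 6.69 CPM against 0.385, 0.342 and 0.400 and was not called (adjusted p = 0.197). The summed level of these 4 was 7.17 to 10.3 CPM in the libraries labelled 20 months and 4.0 to 5.61 in those labelled 1 month. In footprints of whole liver, more cells of a type, more RNA per cell and more ribosomes per RNA cannot be told apart.

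Of 24 tested genes of fatty acid and triglyceride synthesis, 1 (Mogat1) was called, against 0.353% of all genes. The median log2 difference was 0.51 against −0.02 over all genes. Ranges did not overlap, with the older libraries higher, in 12 of the 24, a state seen in 11.8% of all genes. Scd1, which makes monounsaturated fatty acids, was at 21929, 24264 and 19191 CPM against 13368, 4728 and 5751, with no overlap but with a wide spread among the younger libraries (1.45 ± 0.54, adjusted p = 0.334). Me1, which supplies NADPH for synthesis, had 1.17 ± 0.41 (adjusted p = 0.301), and Thrsp, a lipogenic nuclear protein, had 1.35 ± 0.51 (adjusted p = 0.348). Pklr, the liver pyruvate kinase, was at 441 to 451 CPM against 133 to 235 (1.32 ± 0.50, adjusted p = 0.348).

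In fatty acid oxidation and PPARA targets 1 of 30 was called, and 29 of 30 had a positive log2 difference, with a median of 0.45. That gene, Vnn1, encodes the enzyme that frees pantothenate and is a well-known PPARA target in mice. It stood at 94.9, 113 and 88.0 CPM against 21.1, 28.4 and 38.7, and every older library was above every younger one. Its log2 difference was 1.74 ± 0.35 (adjusted p = 0.0464), but 0.0621 with the replicate number as a block, and it was called in 0 of 6 fits with a library left out. Acaa1b, a thiolase of peroxisomal oxidation, had 1.01 ± 0.43 (adjusted p = 0.410). Ranges were apart and higher in the older libraries in 23 of the 30, against 11.8% of all genes, and apart and lower in 1. Over all genes 0.353% were called, and 47.5% had a difference above 0.

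The smallest adjusted p-values of the comparison belonged to Osbpl3 and Gprc5b. Osbpl3, a lipid transfer protein at contacts of the endoplasmic reticulum, stood at 25.7, 31.4 and 30.8 CPM against 4.91, 2.60 and 4.0. The older libraries were alike and the younger ones far below, by 2.94 ± 0.33 (adjusted p = 0.000698). Gprc5b, an orphan receptor of the retinoic acid-inducible family, was at 9.07, 10.2 and 9.97 CPM against 1.35, 0.547 and 0.333, a difference of 3.78 ± 0.41 (adjusted p = 0.000698). Pltp, the plasma phospholipid transfer protein, was at 276, 241 and 216 CPM against 83.6, 40.3 and 45.2, or 2.12 ± 0.39 (adjusted p = 0.0287), and was called in 1 of 6 fits with a library left out. Tmem189, which makes plasmalogens, rose by 1.10 ± 0.23 (adjusted p = 0.0492, and 0.0767 with the block).

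Detoxifying enzymes rose in small numbers, 3 of 34 being called (Cyp2b9, Cyp2c38, Sult1a1), with a median log2 difference of 0.60. Over all genes 0.279% were called higher. Cyp2b9, a cytochrome P450 of female mouse liver, was at 33.7, 6.39 and 21.7 CPM against 0, 0.0684 and 0.200. The older libraries differed among themselves but lay far above the younger ones, by a fitted 7.58 ± 1.20 (adjusted p = 0.0106). Cyp2a22, which is not on that list, was at 9.56, 5.30 and 10.9 CPM against 0.289, 0.273 and 0.400, or 4.68 ± 0.58 (adjusted p = 0.00177). Cyp2c38 was at 51.1, 51.5 and 65.6 CPM against 15.5, 14.4 and 17.8, or 1.82 ± 0.30 (adjusted p = 0.0145), and the sulfotransferase Sult1a1 rose by 0.77 ± 0.16 (adjusted p = 0.0464, and 0.0621 with the block). Ugt1a5, a glucuronosyltransferase that shares exons with its neighbours, was at 104, 98.6 and 72.2 CPM against 22.1, 21.4 and 21.2, or 2.09 ± 0.29 (adjusted p = 0.00520). These families hold near-identical copies, so reads may be divided among their members. In fits with a library left out Cyp2b9 was called in 3 of 6 and Cyp2c38 and Sult1a1 in 1 of 6.

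Female-biased and male-biased genes lay on opposite sides of 0. Of 20 tested female-biased genes 3 rose (Hao2, Cyp2b9, Cyp2c38), 18 had a positive log2 difference, and the median was 1.81, the same with genes at 0 counts set to their bound. Hao2, a peroxisomal hydroxyacid oxidase, had 45 counts in the libraries labelled 20 months and 0 in those labelled 1 month, so it was at least 16.1-fold higher against a floor of 3 counts over the group (adjusted p = 0.00819). Cyp2b13, not called by edgeR (adjusted p = 0.0797), had 32 counts against 0, at least 11.5-fold. Acot3, a peroxisomal thioesterase, stood at 83.0, 33.0 and 72.7 CPM against 5.58, 1.16 and 6.93 (3.79 ± 1.09, adjusted p = 0.201). The organic anion transporters Slc22a27 and Slc22a26 had 2.99 ± 0.64 (adjusted p = 0.0587) and 3.50 ± 0.98 (adjusted p = 0.184). DESeq2 called 8 of the 20, all higher, including these 4, where it called 1.5% of all genes. Over all genes edgeR called 0.279% higher, and 47.5% had a difference above 0.

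Of 26 tested male-biased genes 2 fell and 23 had a negative log2 difference, with a median of −1.20. Selenbp2, a selenium-binding protein with a near-identical copy in Selenbp1, stood at 22.8, 46.3 and 33.4 CPM in the libraries labelled 20 months against 542, 961 and 804. All older libraries were far below all younger ones, at −4.49 ± 0.79 (adjusted p = 0.0203), and it was called in 1 of 6 fits with a library left out. Ugt2b38, a glucuronosyltransferase, was at 1.70, 3.04 and 1.64 CPM against 18.6, 21.5 and 17.4, at −3.15 ± 0.60 (adjusted p = 0.0334), and was called in 0 of those 6 fits. Serpina1e, Cyp7b1 and Mup20, male-biased genes of the secreted inhibitor, oxysterol and urinary protein classes, were not called by edgeR, at −1.82 ± 0.62, −1.50 ± 0.46 and −1.28 ± 0.46 (adjusted p = 0.280, 0.231 and 0.319). DESeq2 called 4 of the 26, all lower, with Cyp7b1 among them, where it called 1.5% of all genes. Over all genes edgeR called 0.0735% lower, and 47.5% had a difference above 0. The summed level of the list was 9445 to 14794 CPM against 24246 to 33437 CPM.

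**Figure D3:**
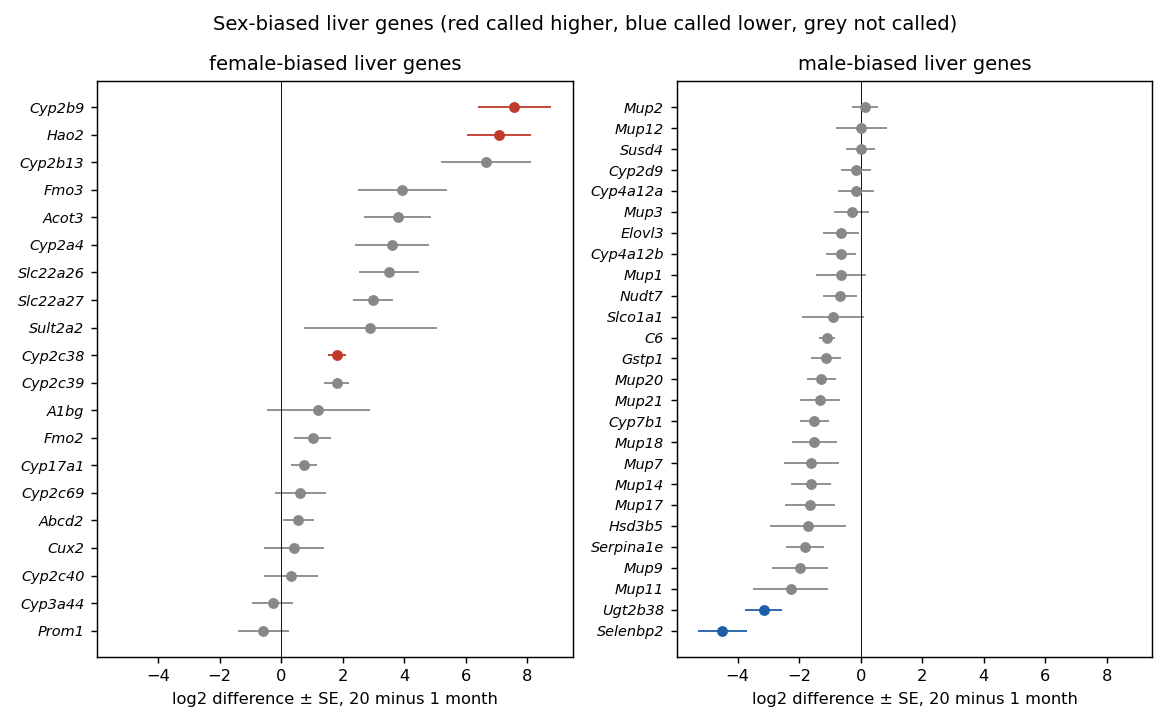
Points are log2 differences (labelled 20 minus 1 month) and bars their SE for the 20 tested female-biased genes on the left and the 26 male-biased genes on the right. Called genes are red (higher) or blue (lower); 18 of the female-biased genes lie to the right of 0 and 23 of the male-biased genes to the left, and points of genes at 0 counts in a group, such as Hao2 and Cyp2b13, depend on the prior count.

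Heme and redox genes were among the higher calls. Alas1, the rate-limiting enzyme of heme synthesis, stood at 1608, 821 and 1276 CPM against 332, 497 and 444. The groups did not overlap, though the older libraries differed widely, and the log2 difference was 1.54 ± 0.30 (adjusted p = 0.0334), called in 1 of 6 fits with a library left out. Blvrb, a biliverdin and flavin reductase, was at 113, 125 and 114 CPM against 65.3, 71.0 and 66.5, or 0.80 ± 0.13 (adjusted p = 0.0106), called in 2 of those 6 fits.

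Of 19 tested genes of oxidative stress and metallothioneins 2 were called, against 0.353% of all genes, with a median of 0.25. Nqo1, a quinone reductase and textbook NRF2 target, was at 13.2, 10.8 and 11.9 CPM against 4.52, 3.14 and 5.07 (1.49 ± 0.28, adjusted p = 0.0315). Mgst3, a microsomal glutathione transferase, was at 23.5, 24.2 and 25.7 CPM against 13.7, 7.11 and 8.0 (1.36 ± 0.22, adjusted p = 0.0110). Both had older libraries close together and above all younger ones; Nqo1 was called in 0 and Mgst3 in 2 of 6 fits with a library left out. The promoter of Nqo1, shown as that of the best known NRF2 target, lies on the minus strand at chr8:107403156-107403455.
Nqo1: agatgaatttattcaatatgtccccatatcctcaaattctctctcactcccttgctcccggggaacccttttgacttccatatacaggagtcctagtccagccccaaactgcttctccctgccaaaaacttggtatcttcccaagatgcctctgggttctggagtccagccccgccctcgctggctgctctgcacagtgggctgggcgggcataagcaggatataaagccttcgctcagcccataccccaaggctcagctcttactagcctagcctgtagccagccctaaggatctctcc
Neither this window nor that of Mgst3 held the letters of the antioxidant element.

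Retinoid and other dehydrogenases were represented by Rdh16 and Dhrs7. Rdh16, a retinol and steroid dehydrogenase, was at 234, 200 and 214 CPM against 83.7, 68.2 and 96.8 (1.38 ± 0.25, adjusted p = 0.0257). Dhrs7, a short-chain dehydrogenase, was at 41.3, 46.1 and 34.8 CPM against 20.6, 26.2 and 21.7 (0.84 ± 0.13, adjusted p = 0.00918). Tcn2, which carries vitamin B12, rose by 0.75 ± 0.13 (adjusted p = 0.0145). With single libraries left out, Rdh16 was called in 0, Dhrs7 in 3 and Tcn2 in 1 of 6 fits.

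Cytoskeletal and surface genes were also among the higher calls. Lgals1, a galectin, was at 32.4, 47.95 and 28.8 CPM against 8.37, 8.82 and 6.13 (2.23 ± 0.35, adjusted p = 0.0106). Tpm2, a tropomyosin, was at 6.27, 21.1 and 7.83 CPM against 1.73, 1.98 and 3.07 (2.36 ± 0.41, adjusted p = 0.0167). Library 2 labelled 20 months was the highest for both, and without it the difference of Tpm2 was 1.61 and that of Lgals1 1.98 (adjusted p = 0.0746 and 0.0553). The summed level of 27 matrix, fibroblast and stellate cell markers, cell types that also make both, was 3187 to 4022 CPM against 3287 to 3664. Most of that sum was Fn1, at 3180, 2455 and 2328 CPM against 2298, 2688 and 2530. By member the list leaned lower, with a median log2 difference of −0.22 and 17 negative against 10 positive. The part of these cell types in the result was not tested. The proteoglycan gene Gpc1 rose by 1.26 ± 0.24, the small GTPase gene Rnd2 by 1.15 ± 0.23 and the F-box gene Fbxo40 by 2.15 ± 0.44 (adjusted p = 0.0371, 0.045 and 0.0464). With the block their adjusted p was 0.0613, 0.0680 and 0.0755. Further higher calls were Ube2e2, a ubiquitin-conjugating enzyme (0.93 ± 0.14, adjusted p = 0.00520), Vac14 of the PIKfyve complex (0.66 ± 0.11, adjusted p = 0.0164), Plekhb1 (1.37 ± 0.26, adjusted p = 0.0332), the mannose phosphate enzyme Pmm1 (1.26 ± 0.24, adjusted p = 0.0334) and the phosphatase Dusp28 (0.84 ± 0.17, adjusted p = 0.0464). With single libraries left out, Ube2e2 was called in 5, Lgals1 and Tpm2 in 2, Vac14 in 1 and Gpc1, Rnd2, Fbxo40, Plekhb1, Pmm1 and Dusp28 in 0 of 6 fits. With the block, Pmm1 had an adjusted p of 0.0680 and Dusp28 of 0.0752. The olfactory receptor gene Olfr701 rested on 17 counts against 0, at least 6.10-fold (adjusted p = 0.0464). Both noncoding calls, Gm32468 and B430212C06Rik, were higher too; B430212C06Rik had 66 counts against 0 and its annotated span runs into the start of Cidea, and where its reads lie was not tested. Both lost their call with the block (adjusted p = 0.0713 and 0.0763), and they and Olfr701 were called in 0 of the 6 fits with a library left out.

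Among genes that fell, C9, the pore-forming last component of the membrane attack complex, was at 256, 287 and 284 CPM in the libraries labelled 20 months against 510, 752 and 550. The older libraries lay close together and below all younger ones, at −1.13 ± 0.22 (adjusted p = 0.0334). It was the 1 called gene of 29 tested in acute phase and complement, where 27 had a negative log2 difference and the median was −0.58. Other components of the same complex, Hc (complement C5), C6, C8a and C8b, had −0.96 ± 0.24, −1.09 ± 0.25, −0.87 ± 0.25 and −1.13 ± 0.34, and none was called by edgeR (adjusted p = 0.116, 0.0798, 0.193 and 0.225). DESeq2 called 6 of the 29, all lower: C9, Hc, C6, C8a, Saa1 and Saa2. Over all genes DESeq2 called 1.5% and edgeR called 0.0735% lower, and 47.5% had a difference above 0. The acute phase proteins Saa1 and Saa2 rested on 1 library, with 841 and 424 CPM in library 2 labelled 1 month and at most 32.9 and 11.4 in the other 5. C9 was called in 0 of 6 fits with a library left out, its adjusted p running from 0.0559 to 0.192.

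The other genes that fell have varied roles. Adgrf1, an adhesion receptor, was at 4.26, 6.39 and 3.66 CPM against 55.5, 18.9 and 24.7 (−2.77 ± 0.47, adjusted p = 0.0150). Enho, which encodes the secreted peptide adropin, was at 2.74, 4.05 and 4.29 CPM against 33.0, 24.3 and 14.5 (−2.71 ± 0.55, adjusted p = 0.0464, and 0.0742 with the block). Acmsd, the enzyme that directs tryptophan breakdown away from NAD synthesis, was at 12.7, 9.05 and 11.4 CPM against 44.9, 29.5 and 22.6 (−1.55 ± 0.32, adjusted p = 0.0464, and 0.0680 with the block). For all 3 the younger libraries spread more widely than the older ones, and no library crossed between groups. Chic1 fell by 1.71 ± 0.31 and Dop1a, of endosome traffic, by 1.05 ± 0.22 (adjusted p = 0.0257 and 0.0492, and 0.0519 and 0.0680 with the block). Mpp7, a polarity scaffold, fell by 1.10 ± 0.19 (adjusted p = 0.0167). With single libraries left out, Adgrf1 was called in 2, Mpp7 in 1 and Enho, Acmsd, Chic1 and Dop1a in 0 of 6 fits.

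Tff3, a trefoil peptide of mucosal surfaces, was at 0.122, 0.0780 and 0.126 CPM in the libraries labelled 20 months against 52.2, 5.74 and 0.800. The younger libraries spanned a wide range, and library 1, the highest, also held the 13.2 CPM of Kap and 4.23 CPM of the kidney transporter Slc34a1. The log2 difference was −7.38 ± 1.48 (adjusted p = 0.0464) and −4.84 (adjusted p = 0.129) without that library. The part of kidney reads in the difference was not tested.

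Immune cell markers held no call. Of 20 B and plasma cell markers none was called by edgeR's test, 8 had an unadjusted p under 0.05, all higher, where 5.64% of all genes were higher and 5.42% lower at that p, and DESeq2 called 4 (Ighm, Igkc, Ighg2b, Ighg2c). DESeq2 called 1.5% of all genes. The median log2 difference of these 20 markers was 1.36, with 16 positive and 4 negative. Ranges were apart and higher in 10, against 11.8% of all genes, and apart and lower in 2, against 10%. The summed level of the 20 was 429 to 480 CPM in the libraries labelled 20 months against 327 to 384. Most of that sum was Xbp1 and Cd74. Xbp1 was at 208, 197 and 176 CPM against 235, 267 and 209 (−0.29 ± 0.24, adjusted p = 0.676). Cd74 was at 161, 67.7 and 98.8 CPM against 113, 99.3 and 106 (0.04 ± 0.49, adjusted p = 0.985). Ighm, the heavy chain of IgM, was at 38.2, 123 and 117 CPM against 7.79, 6.49 and 3.73 (3.95 ± 1.03, adjusted p = 0.151), and the kappa chain Igkc at 7.67, 49.6 and 49.2 against 2.98, 2.26 and 0.800 (4.17 ± 1.12, adjusted p = 0.164). Jchain, of secreted antibody, had 3.48 ± 1.10 (adjusted p = 0.250). Their ranges were apart, with library 1 the lowest of the older group for all 3. None of 24 macrophage and Kupffer cell markers (median −0.05), 15 T and NK cell markers (0.34) or 6 neutrophil markers (−0.57) was called. The interferon response had 0 of 30 called and a median of −0.38.

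Stress and clock lists held few calls by edgeR. The integrated stress response had 1 of 22 called (Vldlr), against 0.353% of all genes, and a median of 0.03. Asns, an amino acid enzyme of that response, was at 2.01, 3.51 and 1.52 CPM against 29.6, 6.15 and 5.33 (−2.50 ± 0.67, edgeR adjusted p = 0.161, called by DESeq2), and Atf4, its transcription factor, had −0.38 ± 0.16 (adjusted p = 0.401). Cytosolic heat shock had 0 of 21 called by edgeR, 7 with an unadjusted p under 0.05 (6 higher, 1 lower) and 3 called by DESeq2 (Hspa1b, Hsph1, Bag3), and a median of 0.18. Over all genes 11.1% had such an unadjusted p, and DESeq2 called 1.5%. Hspa1b, an inducible HSP70 with a near-identical neighbour, was at 31.8, 22.2 and 15.9 CPM against 8.18, 8.13 and 3.67 (1.82 ± 0.39, adjusted p = 0.0558). The cochaperones Hsph1, Bag3 and Dnajb1 had 1.18 ± 0.31, 1.09 ± 0.30 and 0.82 ± 0.24 (adjusted p = 0.144, 0.173 and 0.220). The clock list had 0 of 21 called, a median of 0.58 and 17 positive differences. An unadjusted p under 0.05 was seen in 8 of the 21 (6 higher, 2 lower), against 11.1% of all genes. Its ranges were apart and higher in 9, against 11.8% of all genes, and apart and lower in 2, against 10%. Its activators Arntl and Clock had −1.97 ± 0.73 and −0.90 ± 0.30, and its repressor Per2 had 1.03 ± 0.34 (adjusted p = 0.335, 0.276 and 0.275); the hour of tissue collection was not given in the sources used here.

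Respiratory chain genes leaned one way by little. Of 77 oxidative phosphorylation genes 75 had a positive log2 difference, with a median of 0.26 and 0 called. With library size as the only scaling, which moves all genes, the median was 0.10. Ranges were apart, with the older libraries higher, in 33 of the 77, against 11.8% of all genes. Mitochondrially encoded proteins had a median of 0.49 (7 tested), mitochondrial ribosomal proteins 0.11 (77), cytosolic ribosomal proteins 0.07 (78), translation factors 0.08 (29), proteasome subunits 0.09 (37) and lysosomal proteins 0.17 (26). None of these was called. Glycolysis and gluconeogenesis had a median of 0.36 (25 tested), with 0.73 ± 0.30 for the glucose transporter Slc2a2 (adjusted p = 0.397). Of the 25 genes 22 were positive, and edgeR called 0. Ranges were apart and higher in 15 of them, against 11.8% of all genes. An unadjusted edgeR p under 0.05 was seen in 8, all higher, against 5.64% of all genes. DESeq2 called 1 (Pcx), where it called 1.5% of all genes.

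In all, 32 of the 40 lists held no gene called by edgeR. Of their 797 tested genes 92 (11.5%) had an unadjusted p under 0.05, and DESeq2 called 12 (1.51%). Pooled, these shares were close to those over all genes, but single lists differed. An unadjusted p under 0.05 was held by 8 of 20 B and plasma cell markers and 8 of 21 clock genes. It was held by 8 of 25 glycolysis and gluconeogenesis genes and 7 of 21 heat shock genes. None of 24 macrophage and Kupffer cell markers, 28 cell cycle genes or 25 cholesterol synthesis genes held one. Cholesterol synthesis had a median of −0.25 (25 tested), bile acid synthesis and transport 0.00 (20), urea cycle and amino acid breakdown 0.05 (30), selenoproteins 0.06 (20), iron handling 0.15 (15) and hepatocyte secreted proteins 0.12 (16). Chaperones of the endoplasmic reticulum had −0.18 (26), the growth hormone and IGF axis −0.01 (15), senescence-associated genes −0.12 (17), cell cycle genes −0.17 (28) and juvenile and fetal liver genes −0.36 (13). Matrix, fibroblast and stellate cell markers had −0.22 (27), including −1.40 ± 0.50 for the collagen gene Col1a1 (adjusted p = 0.310). Endothelial markers had 0.03 (18), MHC and antigen presentation 0.11 (17), cholangiocyte markers −0.32 (7), erythroid markers 0.39 (9) and kidney, pancreas and fat markers −0.43 (7).

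**Figure D4:**
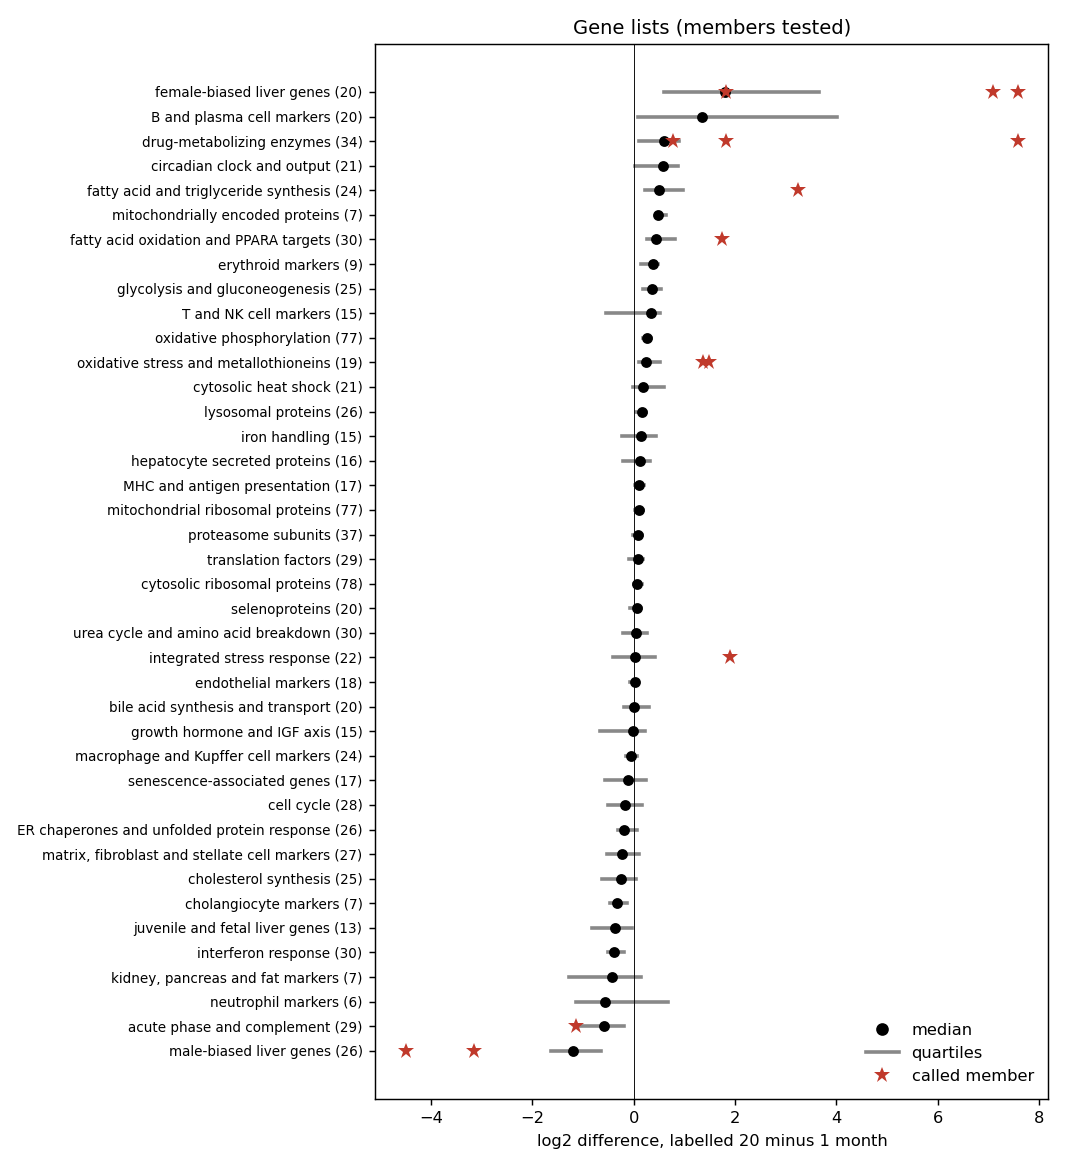
Black points are the median log2 difference (labelled 20 minus 1 month) of the tested members of each of 40 gene lists, grey lines run between quartiles, and red stars are called members. Female-biased genes stand at the top with a median of 1.81 and male-biased genes at the bottom with −1.20; the number in brackets is the members tested.

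Set among all 6 labelled ages, the libraries labelled 20 months had the highest mean in 27 of the 38 genes called higher (71.1%) and the lowest in 7 of the 10 called lower (70%). The same held in 44% of all tested genes with a positive difference and 41.6% of those with a negative one. Called genes were chosen by their difference at this label in the same libraries, which favours such ranks. The genes set beside them were not matched by size of difference, so these shares are a description and no test. Cidec, with a mean of 59.6 ± 13.6 CPM (SD, n = 3) at the label of 20 months, had 36.4 ± 22.3 at 26, 22.1 ± 18.5 at 32, 7.87 ± 4.51 at 3, 2.52 ± 0.65 at 11 and 1.98 ± 0.92 at 1 month. The ranges at 20 and 26 months overlapped, as did those at 26 and 32, 32 and 3, and 11 and 1. Gprc5b and Osbpl3 showed a like order at the top, with 8.25 ± 2.96 and 26.0 ± 9.71 CPM at 26 months. Cyp2b9, Cyp2a22 and Hao2 were instead highest at the label of 11 months, with 83.8 ± 14.9, 37.8 ± 9.18 and 21.6 ± 8.68 CPM, and there their lowest library was above every library labelled 20 months. C9 was at 256 ± 16.6 CPM at 11 months and 276 ± 16.9 at 20, whose ranges overlapped, and was higher at the other 4 labels.

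**Figure D5:**
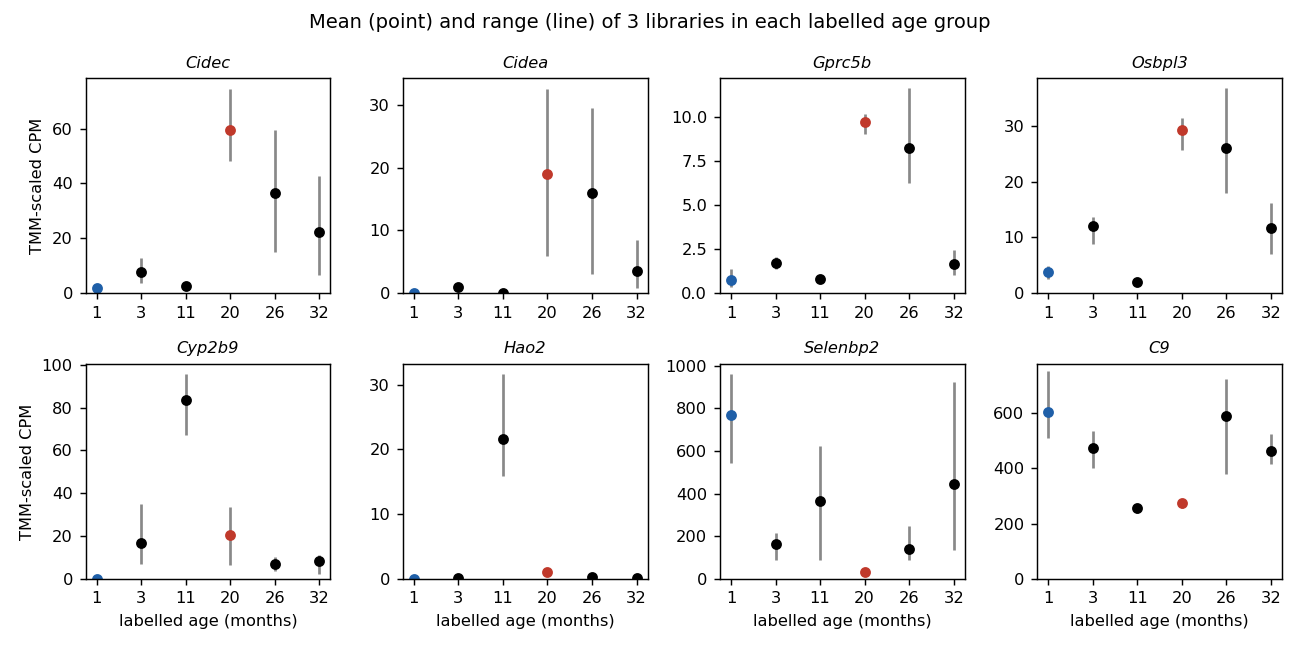
Points are mean TMM-scaled CPM and lines the range of the 3 liver footprint libraries at each labelled age, in order of the labels, with 1 month in blue and 20 months in red. Cidec, Cidea, Gprc5b and Osbpl3 peak at the label of 20 months, and Cyp2b9 and Hao2 at 11 months.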

How the data were processed

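Footprint libraries of whole liver were grouped by the age in their labels, 3 libraries at each of 6 ages. Values are whole read counts for each gene, not normalized, as the authors deposited them. The submitters' processing notes name cutadapt 1.14, STAR 2.5.3 and the build mm10; the counting tool and annotation are not given in the sources used here. Per the labels' protocols, a mixture of RNases T1 and S7 trimmed the mRNA to footprints. Counts of the 6 compared libraries summed to 7985755 to 17630204, and exact intervals cover counting error only. Of 50222 gene identifiers, 49998 matched a symbol.

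All 18 liver footprint libraries shared the dispersion. After filterByExpr with a minimum count of 10, TMM factors were applied and genes were tested by the two-sided robust quasi-likelihood F test of edgeR 4.0.16 (R 4.3.3) with Benjamini-Hochberg adjustment over all 13608 genes, called under 0.05; the steps were tested on simulated counts. The SE of a log2 difference was taken as its size over the root of F. Levels are CPM on the TMM-scaled library size.

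Members, lists and tests were chosen with earlier results of these data known. Lists are described by counts and medians, with no set test. Genes were named by a rule: the 10 highest and 10 lowest differences among called genes of at least 5 CPM with ranges apart, the 5 of highest level each way, and up to 4 called members of a list or 2 of highest level where none was called. Other called genes and the uncalled ones in the text were chosen after their values were seen, and rule-named uncalled members appear in part only as their lists' medians; some of these genes are counted and not reported here. The main fit did not pair libraries, and replicate numbers entered only as a block in alternative fits. In the compared groups, deviations from group means of same-numbered libraries correlated weakly (r = 0.182, 0.103 and 0.347, over genes). Over all 6 groups the mean was −0.048 for same numbers and 0.024 for other numbers. The labels do not say that a number marks an animal. The fit with the number as a block was an alternative beside DESeq2 1.42.0, other scalings and filters, other sets of libraries and each library left out. RNA libraries were not used, because 2 of 3 labelled liver at 1 month carried kidney markers. RNA libraries with other labels also carried markers of the other tissue. Examples are Kap at 55119 and 58931 CPM in libraries 2 and 3 labelled liver 26 months, and Alb at 166389 CPM in library 2 labelled kidney 20 months. Promoters are from RefSeq, GRCm38.p6.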

Additional observations from a re-analysis of the deposited data

Results flagged for a closer look

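A signal appeared in data outside the footprint comparison. RNA libraries 1 and 2 labelled liver 1 month held the kidney transcript Kap at 52548 and 70557.9 CPM, and Alb at 67.3 and 68.2 CPM, while the third held Kap at 0 and Alb at 141537 CPM. No liver footprint library had Kap above 13.2 CPM.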

How the results depend on the processing

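The 48 calls became 204 with DESeq2 (138 higher, 66 lower), 213 with only the 6 compared libraries (136 and 77), 122 without the 3 libraries labelled 3 months (87 and 35) and 99 without library 1 of these alone (74 and 25). With library size as the only scaling there were 33 calls (15 higher, 18 lower), 24 of them among the 48. The replicate block left 39 calls, 33 of them among the 48, and 659 (332 and 327) with only the 6 libraries, a fit added after seeing the data; beside the 15 calls it ended, given in the text where the gene is reported, it changed no other call among the 48. With 1 library left out, calls ran from 5 to 20, with 4 to 19 higher and 0 to 2 lower (0 without library 2 labelled 20 months). RLE scaling, scaling without the 10 most abundant genes, no filter, a minimum count of 50 and leaving out Gm42418, Gm23935 and Lars2 (added after seeing the data) gave 44 to 56 calls. Both of these scalings kept all 48. The fit with no filter kept 33 of the 48, the minimum count of 50 kept 45, and leaving out Gm42418, Gm23935 and Lars2 kept 44. The cause was not tested. The 48 called genes kept their direction in each of the 18 alternatives that tested them. Depth limits genes such as Olfr701 and Hao2, whose younger libraries held 0 counts.

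Uncalled genes turned sign in places. With library size only, log2 differences were Cd74 −0.11, Fn1 −0.0795, Stab2 −0.15, Stab1 −0.13, Alas2 −0.0175, Slco1b2 −0.0157, Hsp90ab1 −0.0708, Selenop −0.10, Gpx1 −0.0778, Pck1 −0.0129, Lamp2 −0.0834, Eef1a1 −0.0581, Rplp1 −0.11, Rps2 −0.0241, Mrpl12 −0.0133, Mrpl38 −0.0720, Psmd2 −0.14, Psmb4 −0.0801, Igfbp4 −0.0154. With the block and 6 libraries they were Cd74 −0.0643 and Stab2 −0.00567. With 1 library left out they ran as follows: Cd74 −0.36 to 0.29, Mpeg1 −0.47 to 0.0484, Csf1r −0.23 to 0.0972, Lcn2 −1.91 to 1.21, Csf3r −0.37 to 0.21, Ccl5 −0.0604 to 1.02, Ccnd1 −0.75 to 0.22, Fn1 −0.0722 to 0.17, Stab2 −0.0839 to 0.12, Stab1 −0.0276 to 0.0870, Cela1 −0.46 to 0.0189, Sc5d −0.14 to 0.00340, Slco1b2 −0.13 to 0.56, Hsp90ab1 −0.00310 to 0.26, Selenop −0.0705 to 0.14, Pck1 −0.0760 to 0.46, Mest −0.64 to 0.28, Lamp2 −0.0264 to 0.13, Eef1a1 −0.00842 to 0.20, Rplp1 −0.12 to 0.14, Mrpl38 −0.00450 to 0.15, Psmd2 −0.0463 to 0.12, Psmb4 −0.0593 to 0.15.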
